A study of Arabidopsis thaliana with 2 samples.

Results

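The genes described here are 42 Arabidopsis genes that build the plant cuticle, taken by a fixed list of identifiers from the 36632 nuclear gene identifiers of 2 single-nucleus RNA sequencing (snRNA-seq) libraries. By known function they comprise 18 genes of fatty acid chain elongation, 2 of acyl activation, 5 of wax synthesis, 3 of lipid export, 10 of cutin synthesis and 4 MYB regulators. All 42 identifiers were found in both libraries, and 33 of them reached a sum of 200 unique molecular identifiers (UMIs) over both.

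The libraries came from pooled Ler inflorescences that carried pAP1:AP1-GR with ap1-1 and cal-1, collected at day 3 (flowers at stage 4) and at day 4 (flowers at stage 5) of daily DEX-induction. Both groups carried the mutant ap1-1 and cal-1 alleles and the AP1-GR fusion under the AP1 promoter, and both were treated each day with 2 µM dexamethasone, so neither is a wild-type or an untreated control. In this system meristems accumulate without flowers until dexamethasone brings the fusion protein into the nucleus and flowers start to form together. There was 1 library per day, so no difference has a replicate check and no test was run. Values in parentheses are 95% intervals, and they cover counting error only.

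The cuticle is a lipid layer on the outer face of the epidermis that limits water loss and keeps young organs from fusing. Its wax comes from very long chain acyl groups, which an elongation complex extends and which an alkane branch and an alcohol branch then modify. Its cutin is a polyester of hydroxylated fatty acids joined to glycerol, assembled outside the cell. ATP-binding cassette (ABCG) transporters carry the products across the plasma membrane. In shoots this chemistry is a hallmark of the epidermis, and the epidermis itself is specified by homeodomain factors such as ATML1 and PDF2, which bind a short motif known as the L1 box.

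The 500 bases before each annotated start were searched for the L1 box on both strands, as TAAATGCA or TAAATGTA. The motif was found before 7 of the 42 members (16.7%) and before 8.76% of 27443 protein-coding genes. It was found before 0 of the 5 wax synthesis genes. The windows around it are shown for 4 members with different roles, read from the RefSeq annotation of assembly TAIR10.1, which is a Columbia genome and not the Ler genome of these plants. The motif is in capitals.
KCS10 (AT2G26250, chr2:11173299-11173358, minus strand): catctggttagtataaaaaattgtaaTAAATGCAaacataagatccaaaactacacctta
ABCG11 (AT1G17840, chr1:6142329-6142388, plus strand): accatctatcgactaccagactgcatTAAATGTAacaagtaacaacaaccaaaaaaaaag
MYB96 (AT5G62470, chr5:25081142-25081191, minus strand): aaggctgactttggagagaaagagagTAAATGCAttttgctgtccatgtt
GPAT6 (AT2G38110, chr2:15955985-15956044, minus strand): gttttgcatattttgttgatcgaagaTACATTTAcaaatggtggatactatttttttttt
The first base of the motif lay 54 bases before the start of KCS10, 47 before that of ABCG11, 24 before that of MYB96 and 266 before that of GPAT6, where it was read on the opposite strand. The remaining matches were before KCS9, CER26 and MYB30. A GCC box (GCCGCC) was found before CYP96A15, GPAT4 and GPAT6, that is 7.14% of members and 4.12% of protein-coding genes. A match describes these letters alone, and binding was not measured.

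At least 1000 detected nuclear genes were required of a nucleus, which left 4397 nuclei at day 3 and 4545 at day 4, with 11083512 and 10202530 UMIs and median depths of 1842 and 1805 UMIs. The kept nuclei of the libraries shared 6 barcodes, against 2.94 expected by chance. Nuclei were clustered in each library with the 42 genes left out, and clusters were named from marker lists. Epidermis-like nuclei numbered 526 at day 3 (12.0%, 1 cluster) and 822 at day 4 (18.1%, 2 clusters), and their defining markers were present, with 7 of 12 epidermis markers at least 2-fold higher in the day 3 cluster, and 9 and 8 in the day 4 clusters. None of these markers was among the 10 leading genes of a cluster, which included CYP96A15, CER4, CER1 and WSD1 at day 3 although members had been left out of the clustering. A day 4 cluster of 166 nuclei named S phase-like also had 7 of these 12 markers at least 2-fold higher and was counted outside the epidermis-like nuclei.

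Over all nuclei the 42 genes together took 3288 CPM (counts per 1000000 UMIs) at day 3 (3254 to 3322) and 3776 CPM at day 4 (3738 to 3814), a ratio of 1.15 (1.13 to 1.17). The roles differed in this ratio. Wax synthesis genes went from 627 to 959 CPM, a ratio of 1.53 (1.48 to 1.58), and the MYB regulators from 103 to 157 CPM, also 1.53 (1.41 to 1.65). Export had a ratio of 1.18 (1.12 to 1.24) and acyl activation one of 1.17 (1.12 to 1.21). Elongation was near 1, at 0.97 (0.95 to 0.998), and so did cutin synthesis, at 1.02 (0.99 to 1.06). These ratios were measured in bulk over all nuclei, where more epidermal nuclei and more RNA per nucleus cannot be told apart. Over all nuclei the 12 epidermis markers together went from 3299 to 2741 CPM, a ratio of 0.83 (0.82 to 0.84). The median ratio of these markers was 1.05. Whether the epidermal share differed between days was not tested.

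Among the 33 members with at least 200 UMIs, 5 were at least 1.5-fold higher at day 4, where 4.83% of 14740 genes were, and 1 was at least 1.5-fold lower, where 3.64% of genes were. The median ratio of these members was 1.10, and that of all genes tested was 1.06. The 5 higher genes were 3 of wax synthesis and 2 MYB regulators. CER4 was the closest to the limit on the inside, and ABCG12, at 1.48 (1.295 to 1.70), the closest on the outside. CER4 was under 1.5-fold in 6 alternative settings, TMM scaling among them, and BDG1 (AT1G64670) came short of it in 2.

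**Figure D1:**
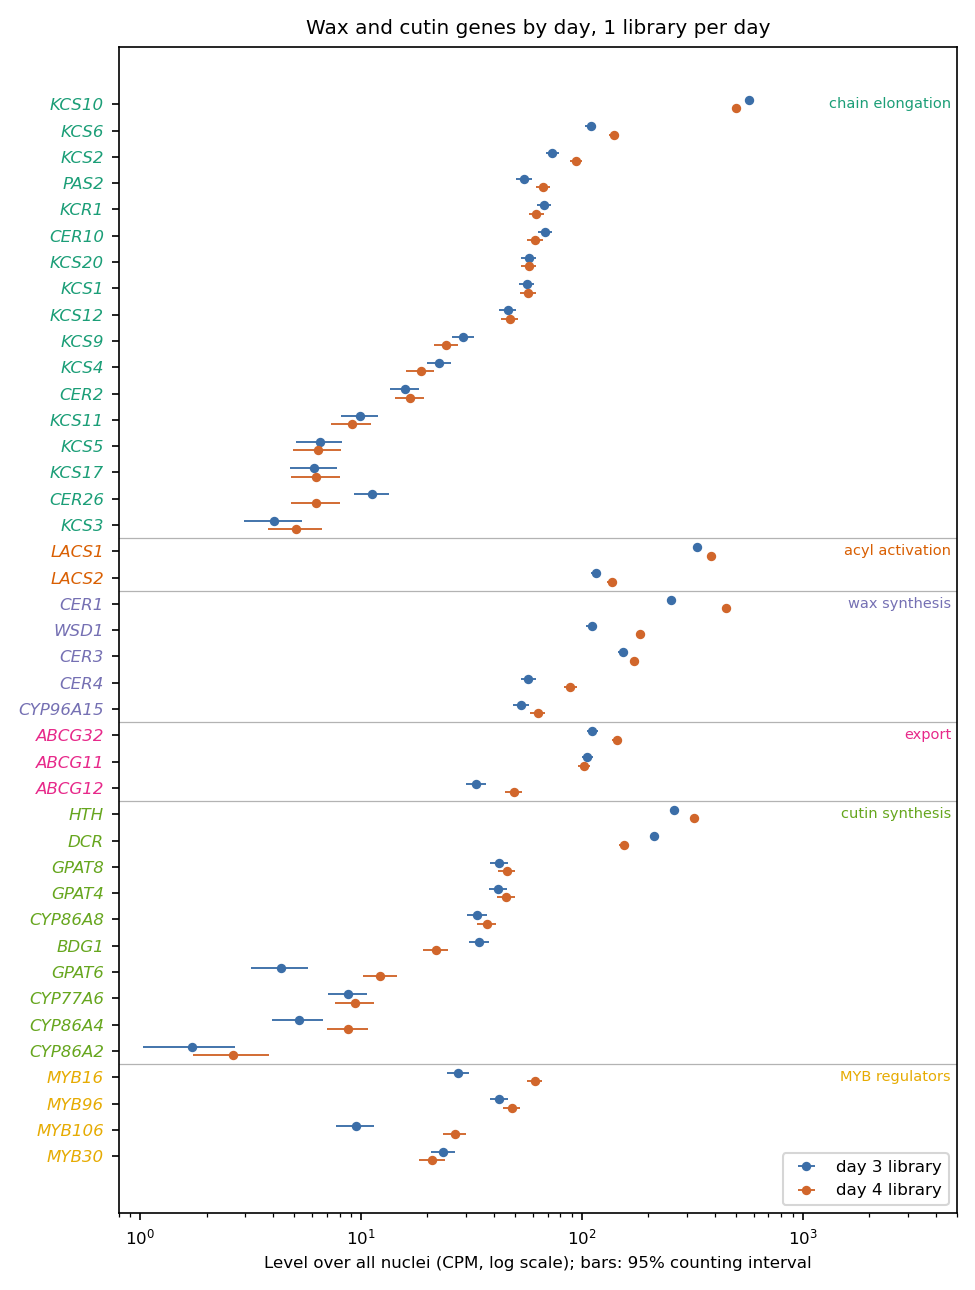
Level of 41 members over all nuclei in CPM (log axis) in the day 3 and the day 4 library, ordered by role, with 95% counting intervals as bars. KCS16, with 1 UMI, is left out. Points separate most for GPAT6, MYB106 and MYB16 (ratios of 2.83, 2.81 and 2.22, with 173 UMIs for GPAT6) and hardly at all for KCS1 and KCS20.

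In the alkane branch, CER1 (AT1G02205), which forms alkanes together with CER3 (AT5G57800), went from 253 CPM at day 3 to 449 CPM at day 4, a ratio of 1.78 (1.70 to 1.86). CER3 itself went from 153 to 173 CPM (ratio 1.13, 1.06 to 1.21), so these partners in one reaction differed in their change. CYP96A15 (AT1G57750), the mid-chain alkane hydroxylase that turns alkanes into secondary alcohols and ketones, went from 53.1 to 63.1 CPM (1.19, 1.06 to 1.33). In the alcohol branch, CER4 (AT4G33790), a reductase that makes primary alcohols, went from 57.3 to 88.9 CPM (1.55, 1.40 to 1.72). WSD1 (AT5G37300), the synthase that joins those alcohols to fatty acids as wax esters, went from 111 to 184 CPM (1.66, 1.55 to 1.79). All 5 wax genes thus had a ratio above 1 with an interval apart from 1, as had 5247 of 14740 genes.

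Of the regulators, MYB16 and MYB106 are close relatives that activate cuticle genes and shape conical epidermal cells, and both were higher at day 4. MYB16 went from 27.6 to 61.4 CPM (2.22, 1.94 to 2.56). MYB106 went from 9.47 to 26.7 CPM (2.81, 2.24 to 3.56). MYB96 and MYB30, known as activators of wax synthesis under drought and in pathogen defence, were within 1.5-fold. MYB96 had 42.2 and 48.1 CPM (1.14, 1.00 to 1.296), and MYB30 had 23.6 and 20.98 CPM (0.89, 0.74 to 1.07).

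Elongation begins with a ketoacyl-CoA synthase (KCS), which sets the chain length that is made. KCS10, also known as FIDDLEHEAD, whose loss lets organs fuse, had 574 CPM at day 3 and 502 at day 4 (0.87, 0.84 to 0.91). KCS6, the main synthase of stem wax, went the other way, from 109.8 to 140.4 CPM (1.28, 1.18 to 1.38), and so did KCS2, from 73.5 to 94.4 CPM (1.28, 1.17 to 1.41). KCS1 and KCS20 had ratios of 1.01 (0.90 to 1.13) and 0.996 (0.89 to 1.12). The synthases thus differed in the direction of their ratios.

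The later steps of the elongation cycle belong to the reductase KCR1, the dehydratase PAS2 and the enoyl reductase CER10. Their ratios were 0.93 (0.83 to 1.03), 1.22 (1.09 to 1.36) and 0.90 (0.81 to 1.00). CER2, which allows the longest chains to be made, had 15.8 and 16.7 CPM (1.06, 0.85 to 1.31). The remaining synthases with at least 200 UMIs, KCS4, KCS9, KCS11 and KCS12, had ratios between 0.83 and 1.02.

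Long-chain acyl-CoA synthetases activate fatty acids for both products. LACS1 went from 332 to 386 CPM (1.16, 1.11 to 1.22) and LACS2, which acts in cutin synthesis, from 116 to 137 CPM (1.18, 1.09 to 1.27). Among the exporters, ABCG32, which acts on cutin precursors, went from 112 to 144 CPM (1.29, 1.19 to 1.39). ABCG12 exports wax and went from 33.2 to 49.3 CPM. ABCG11 exports both wax and cutin lipids and had 106 and 102 CPM (0.97, 0.89 to 1.05).

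The cutin genes held the only member that was at least 1.5-fold lower. BDG1, an epidermal hydrolase-fold protein needed for a normal cuticle, had 34.3 CPM at day 3 and 21.9 CPM at day 4 (0.64, 0.54 to 0.75). DCR, an acyltransferase needed for cutin, had 211 and 155 CPM (0.73, 0.69 to 0.78), the lowest ratio short of the limit. HTH, an oxidoreductase linked to dicarboxylic acids of cutin, had 262 and 323 CPM (1.23, 1.17 to 1.297). The glycerol acyltransferases GPAT4 and GPAT8 had ratios of 1.09 and 1.08, and the hydroxylase CYP86A8 one of 1.10, each with an interval that includes 1.

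The 9 members under 200 UMIs were KCS3, KCS5, KCS16, KCS17, CER26, GPAT6, CYP86A4, CYP86A2 and CYP77A6. KCS16 had 1 UMI at day 3 and none at day 4. GPAT6, an acyltransferase of flower cutin, had 4.33 and 12.3 CPM (2.83, 2.01 to 4.03) from 173 UMIs. CYP86A4, a hydroxylase of the same pathway, had 5.23 and 8.72 CPM (1.67, 1.18 to 2.36) from 147 UMIs. CER26, a relative of CER2, had 11.2 and 6.27 CPM (0.56, 0.41 to 0.76) from 188 UMIs. The other 5 had intervals that include 1.

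The members were concentrated in the epidermis-like nuclei. These held 12.0% and 18.1% of nuclei but 37.1% and 56.9% of all member UMIs. The summed level was 10966 CPM in epidermis-like and 2327 CPM in other nuclei at day 3, a ratio of 4.71 (4.61 to 4.81), and 12642 and 1960 CPM at day 4, a ratio of 6.45 (6.32 to 6.58). Of the 33 members, 29 were at least 2-fold higher in epidermis-like nuclei of both libraries, where 2.75% of 14740 genes were. The median of the members was 4.29 at day 3 and 5.59 at day 4, and that of all genes 0.97 and 0.96. Since nuclei were grouped by expression, these ratios are descriptions.

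**Figure D2:**
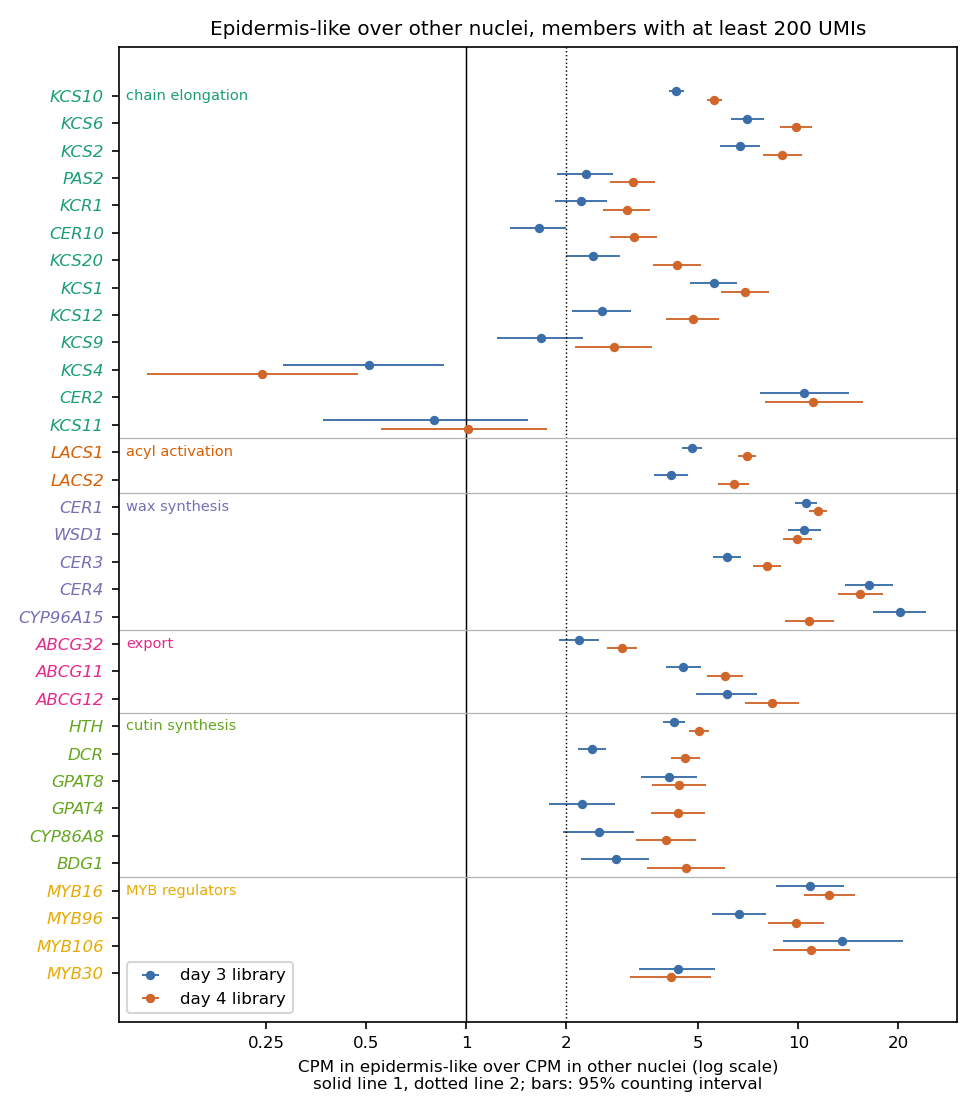
Level in epidermis-like over level in other nuclei (log axis) for the 33 members with at least 200 UMIs in each library, with 95% counting intervals as bars, a solid line at a ratio of 1 and a dotted line at 2. CYP96A15, CER4, CER1, WSD1, CER2, MYB16 and MYB106 lie near 10 or beyond in both libraries, and KCS4 lies left of 1 in both libraries.

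Wax genes had the highest ratios among the roles. CYP96A15 was 20.15-fold higher in epidermis-like nuclei at day 3 and 10.8-fold at day 4, CER4 16.3-fold and 15.3-fold, CER1 10.5-fold and 11.4-fold, WSD1 10.4-fold and 9.93-fold, and CER3 6.10-fold and 8.03-fold. MYB16 was 10.8-fold and 12.4-fold higher and MYB106 13.5-fold and 10.9-fold. Cutin genes were less confined, with summed ratios of 3.22 (3.06 to 3.39) and 4.83 (4.60 to 5.06), against 10.0 (9.57 to 10.5) and 10.6 (10.2 to 11.1) for wax. The elongation steps that all chains share had low ratios, with KCR1 at 2.22 and 3.05 and PAS2 at 2.29 and 3.18.

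Only 4 members with at least 200 UMIs missed the 2-fold mark in 1 library or both. CER10 had ratios of 1.65 and 3.20, and KCS9 had 1.68 and 2.78, so both passed at day 4. KCS11 had 0.80 (0.37 to 1.53) and 1.01 (0.55 to 1.75). KCS4 was lower in epidermis-like nuclei in both libraries, at 0.51 (0.28 to 0.86) and 0.24 (0.11 to 0.47), as were 38.2% of all genes.

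With every nucleus drawn down to 1000 UMIs, for which all were deep enough, KCS10 had a UMI in 68.4% (64.3 to 72.4) and 66.4% (63.1 to 69.6) of epidermis-like nuclei. In procambium-, phloem- and xylem-like nuclei, where a cuticle is not made, the shares were 12.5% and 12.5%. CER1 had a UMI in 55.7% and 61.2% of epidermis-like and in 7.33% and 8.61% of vascular nuclei. CER4 had one in 19.8% and 19.5% of epidermis-like and in 1.26% and 1.72% of vascular nuclei. Median depths before thinning were 1775 and 1725.5 UMIs in epidermis-like and 1959 and 1779 UMIs in vascular nuclei, and unthinned shares in epidermis-like nuclei were 84.2% and 80.4% for KCS10. Free RNA can give UMIs in nuclei that do not express a gene. In the 562367 day 3 barcodes with 1 to 100 UMIs, the members together had 3195 CPM (3094 to 3298), close to the level over all kept nuclei. Summed levels lay at or below this value in every class other than the epidermis-like nuclei, the S phase-like nuclei and the unnamed nuclei of day 3. The part of free RNA in a nucleus was not estimated, and the day 4 counts held no such barcodes. How much of these levels is background was therefore not tested. For single members, 29 of 33 had a day 3 level in other nuclei at or below their free RNA level, and all 33 lay within its upper bound. Genes higher in epidermis-like nuclei lie lower in other nuclei than in a mix of all nuclei, so this count does not show background. The same count over all genes was not made.

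Within epidermis-like nuclei the summed level was 1.15-fold higher at day 4 (1.13 to 1.18). In other nuclei it was 0.84 of that at day 3 (0.83 to 0.86), and lay under the day 3 free RNA level on both days. The first of these turned with the clustering. With clusters formed on all variable genes, members included, 358 and 867 nuclei were epidermis-like and the ratio was 0.98, with 0.88 for wax genes and 1.298 for cutin genes. In the main grouping the wax genes had a ratio of 1.23 (1.18 to 1.28), the regulators one of 1.38 (1.25 to 1.54) and elongation one of 1.01 (0.98 to 1.05). The wax ratio depended on how epidermal nuclei were chosen. Among nuclei with UMIs of 2 epidermis markers (57.9% of nuclei at day 3 and 54.1% at day 4) it was 1.72, above the 1.53 over all nuclei.

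With 29 members at 200 UMIs or more in epidermis-like nuclei, 3 were at least 1.5-fold higher at day 4, where 4.18% of 3974 genes were, and 0 were at least 1.5-fold lower, where 4.2% of genes were. The 3 were MYB106, from 53.6 to 108 CPM (2.02, 1.52 to 2.72), MYB16, from 143 to 259 CPM (1.81, 1.52 to 2.17), and GPAT4, from 82.0 to 126 CPM (1.53, 1.21 to 1.962). Without subcluster 8, of which 28 nuclei are of day 4 and 2 of day 3, GPAT4 had 1.40 (1.09 to 1.80) and was no longer past 1.5-fold, while MYB16 had 1.59 (1.32 to 1.92) and MYB106 1.98 (1.47 to 2.69). CER1 went from 1294 to 1853 CPM (1.43, 1.35 to 1.52). CYP96A15 had 342 and 255 CPM (0.75, 0.65 to 0.86), against the direction of CER1. DCR and BDG1 had ratios of 1.00 (0.90 to 1.12) and 0.78 (0.59 to 1.03) within epidermis-like nuclei.

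**Figure D3:**
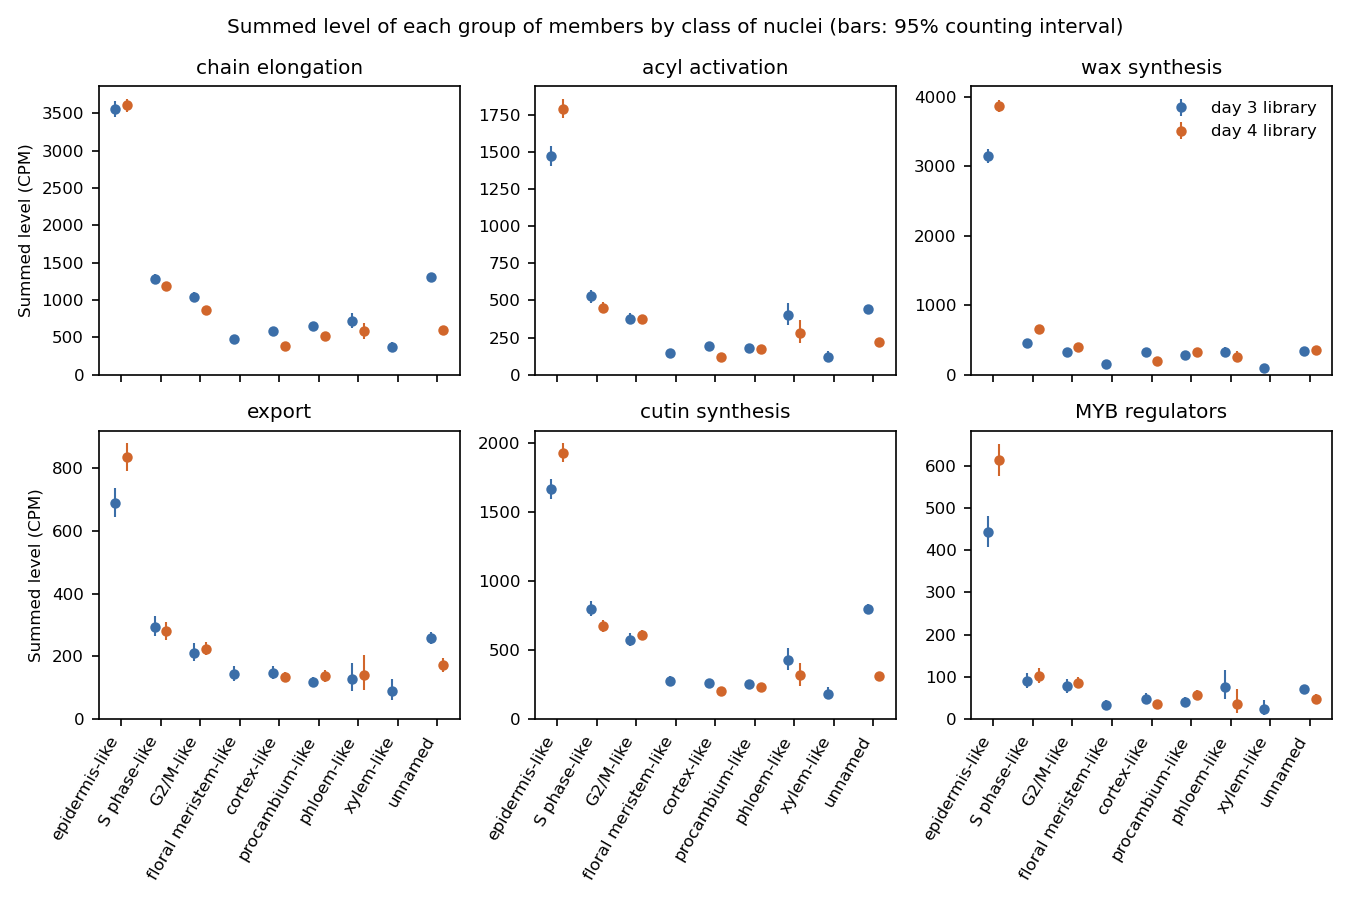
Summed level in CPM (linear axis from 0) of each group of members by class of nuclei in the day 3 and the day 4 library, with 95% counting intervals as bars. Epidermis-like nuclei are highest in all 6 panels, and no cluster was named floral meristem-like or xylem-like at day 4.

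Of the other classes, S phase-like nuclei had 3458 CPM (3352 to 3566) and 3347 CPM (3248 to 3448), and G2/M-like nuclei 2615 and 2565 CPM. The S phase-like class differed in make-up between days. At day 4 it included the cluster of 166 nuclei with 7 of 12 epidermis markers at least 2-fold higher. It also included a cluster of 74 nuclei with no S phase marker among its 10 leading genes. The S phase-like cluster of day 3 had 0 epidermis markers at least 2-fold higher. Procambium-like nuclei had 1523 and 1443 CPM, cortex-like nuclei 1556 and 1064 CPM, and the floral meristem-like nuclei of day 3 had 1236 CPM. The unnamed clusters had 3224 CPM at day 3 and 1695 CPM at day 4. Epidermis markers summed to 3469 and 3037 CPM in S phase-like and 4711 and 1415 CPM in unnamed nuclei, against 7905 and 7429 CPM in epidermis-like and 1374 and 1142 CPM in procambium-like nuclei. The part of epidermal nuclei within these classes in the member levels was not tested. At 1000 UMIs the median nucleus had 10 and 11 member UMIs in the epidermis-like class and 0 to 2 in every other class.

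Epidermis-like nuclei of both days were then divided into 8 subclusters, again without the 42 genes. Subcluster 1 (138 and 229 nuclei at day 3 and day 4) was led by PNP-A, NSP1 and VSP2. Subcluster 2 (111 and 198) had 5 of 10 flavonoid synthesis genes at least 2-fold higher and was led by PBP1 and F3'H. Subcluster 3 (115 and 148) was led by the floral organ identity genes AP3 and PI together with PAN and AIL6. Subcluster 4 (68 and 58) was deep, with a median of 3457.5 UMIs, and was led by genes that mark other tissues, such as BZIP9 and NIP5;1. Subcluster 5 (36 and 79) was led by AT2G04050 and ABCB4, and subcluster 6 (43 and 56) by AT5G51950, IAA7, LTP4 and SHN3. Subcluster 7 (13 and 26) was stomatal lineage-like, with 7 of 8 markers including EPF2, TMM and SPCH. Subcluster 8 (2 and 28) was led by AT5G33370 and SHN1 and had 4 of 10 flavonoid synthesis genes at least 2-fold higher. Its epidermis markers summed to 3859 CPM, the lowest of the 8 subclusters. Comparisons among subclusters were limited to those with at least 30 nuclei in a library, which are subclusters 1 to 6.

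Among subclusters 1 to 6, the sums of wax and of cutin genes peaked in different epidermal nuclei. Wax genes reached 10464 CPM at day 3 and 11483 CPM at day 4 in subcluster 6, which was 4.20-fold (3.91 to 4.51) and 3.68-fold (3.49 to 3.89) the level in other epidermis-like nuclei. Cutin genes were low there, at 0.69 (0.57 to 0.83) and 0.70 (0.60 to 0.80). Cutin genes had 3022 and 2947 CPM in subcluster 2, which was 2.18-fold (1.98 to 2.40) and 1.79-fold (1.67 to 1.93) the level elsewhere, and wax genes were below 1 there, at 0.77 (0.70 to 0.84) and 0.85 (0.80 to 0.90). In subcluster 3, with the floral organ identity genes, wax genes had 0.22 (0.19 to 0.26) and 0.13 (0.11 to 0.16) of the level elsewhere. Cutin genes in subcluster 3 were at 1.14 (1.02 to 1.27) and 0.84 (0.76 to 0.92).

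**Figure D4:**
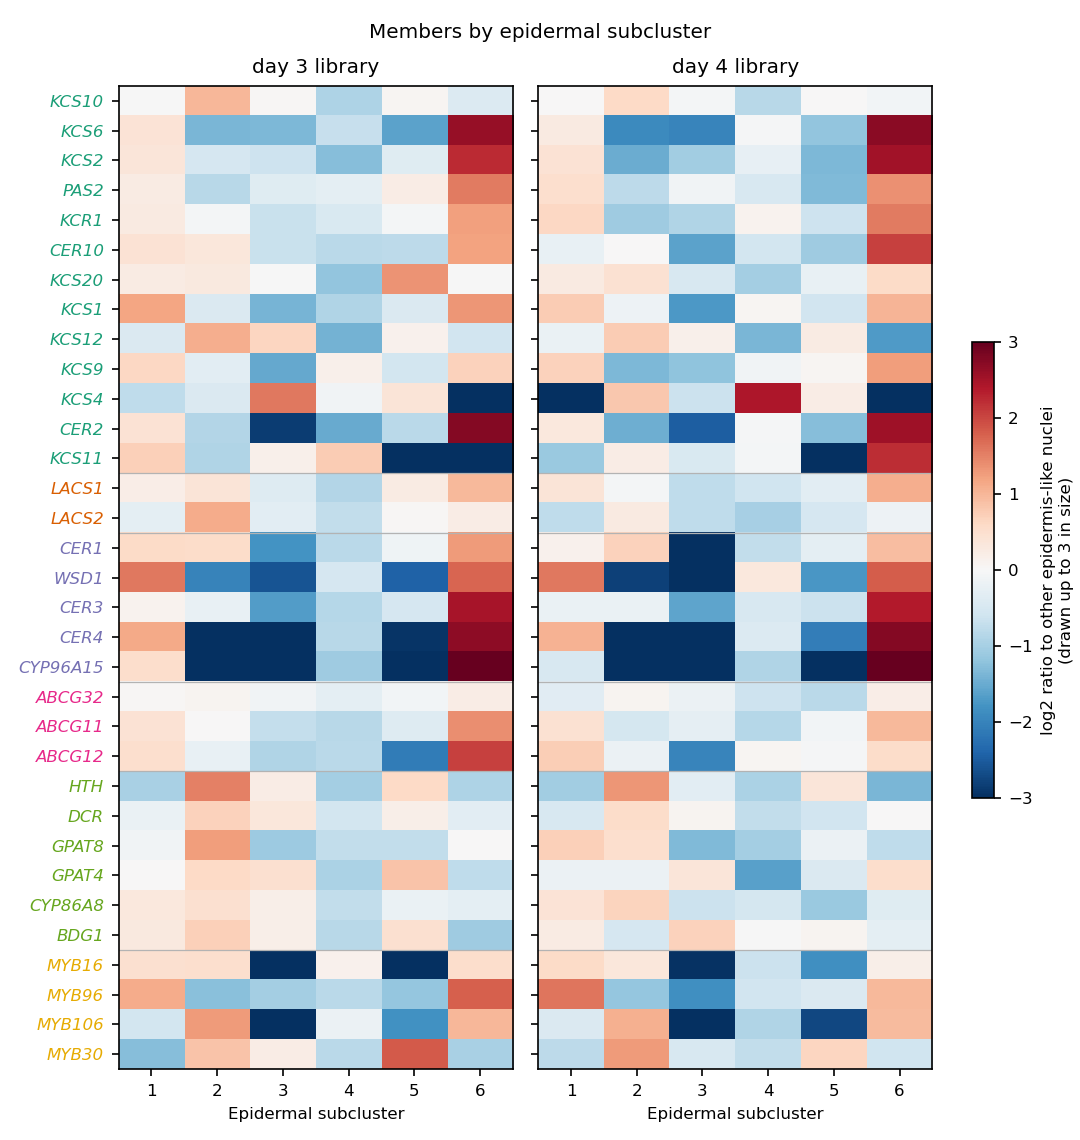
Level of 33 members in epidermal subclusters 1 to 6 over the level in other epidermis-like nuclei, as a log2 ratio drawn up to 3 in size, for the day 3 and the day 4 library, with genes ordered by role. Red cells of the wax genes, KCS6, KCS2 and CER2 fall in column 6, and those of HTH, DCR and KCS10 in column 2.

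Of the 33 members, 19 were highest in subcluster 6 at day 3 and 20 at day 4, where 18.9% and 18.1% of 14740 genes were. In both libraries 16 were highest there, where 6.38% of genes were, and 22 were highest in the same subcluster on both days, where 28.7% of genes were. These shares are not alike in depth. In epidermis-like nuclei 29 of the 33 members but only 3974 of the 14740 genes had 200 UMIs. All 5 wax genes were among those highest in subcluster 6 in both libraries, with subclusters 7 and 8 left out of the ranking. CYP96A15 had 2109 and 1986 CPM there, 11.4-fold (9.39 to 13.9) and 23.2-fold (18.9 to 28.7) the level in other epidermis-like nuclei. CER4 had 1542 and 1773 CPM (6.44-fold and 6.78-fold). CER3 had 2407 and 2392 CPM (5.52-fold and 5.19-fold). The elongation genes that lead to stem wax went along, with KCS6 at 1989 and 2411 CPM (6.10-fold and 6.53-fold), KCS2 at 1094 and 1444 CPM (4.74-fold and 5.72-fold) and CER2 at 368 and 277 CPM (6.72-fold and 5.84-fold).

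WSD1 and MYB96 were high in subcluster 1 as well as in subcluster 6. WSD1 had 1197 and 1470 CPM in subcluster 1, which was 3.01-fold (2.58 to 3.51) and 2.97-fold (2.66 to 3.32) the level elsewhere, and 1592 and 2076 CPM in subcluster 6. MYB96 had 301 and 386 CPM in subcluster 1 (2.18-fold and 3.02-fold) and 497 and 342 CPM in subcluster 6 (3.47-fold and 1.962-fold). CER4 was 2.21-fold and 2.06-fold higher in subcluster 1. In subcluster 2 wax genes other than CER1 and CER3 were low, with CER4 at 47.4 and 31.3 CPM, CYP96A15 at 18.9 and 18.2 CPM and WSD1 at 161 and 128 CPM.

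CER1 did not follow this division. It had 1757 and 2643 CPM in subcluster 2, where CER4, CYP96A15 and WSD1 were low, against 1756 and 1973 CPM in subcluster 1 and 2815 and 3256 CPM in subcluster 6. It was lowest in subcluster 3, at 426 and 250.0 CPM, or 0.29 (0.23 to 0.35) and 0.12 (0.09 to 0.15) of the level elsewhere, and was also low in subcluster 4, at 0.57 (0.50 to 0.64) and 0.60 (0.53 to 0.68). MYB16 was likewise at 0.10 and 0.13 of the level elsewhere in subcluster 3, and MYB106 at 0.07 and 0.05. MYB106 had 4.44 and 7.04 CPM there, so its values rest on very few UMIs. In subcluster 5 MYB16 was low as well, at 0.11 and 0.28, and so was MYB106, at 0.28 (0.01 to 1.63) and 0.15 (0.03 to 0.45). MYB106 had 104 and 182 CPM in subcluster 2, 2.42-fold and 2.09-fold the level elsewhere.

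HTH led the genes of subcluster 2, with 1762 and 1816 CPM, or 2.85-fold (2.50 to 3.24) and 2.52-fold (2.28 to 2.78) the level in other epidermis-like nuclei, and with 448 and 393 CPM in subcluster 6. KCS10 had 3079 and 2150.0 CPM in subcluster 2 (2.00-fold and 1.52-fold), and KCS12 had 180.0 and 203 CPM (2.14-fold and 1.71-fold). DCR had 639 and 584 CPM (1.61-fold and 1.46-fold), LACS2 had 639 and 529 CPM, and CYP86A8 had 94.7 and 138 CPM. KCS10 was lowest in subcluster 4, at 1099.8 and 935.5 CPM, while KCS6 had its lowest values of 157 CPM in subcluster 5 at day 3 and 158 CPM in subcluster 3 at day 4.

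Subcluster 8 held 28 nuclei at day 4 and 2 at day 3, too few for a comparison of days. At day 4 its members of cutin synthesis stood at 4571 CPM, above the 2947 CPM of subcluster 2. LACS2 had 3302 CPM (2864 to 3789), ABCG32 1432 CPM (1148 to 1764), DCR 1171 CPM (916 to 1475) and MYB16 1204 CPM (945 to 1511). GPAT6 had 634 CPM (451 to 867) from 39 UMIs, out of 61 UMIs in all epidermis-like nuclei of day 4. CYP86A4 had 423 CPM (276 to 620) and CYP77A6, the in-chain hydroxylase of flower cutin, 374 CPM (237 to 561). CER1 was high too, at 3807 CPM (3334 to 4327), above its 3256 CPM in subcluster 6 at day 4, whereas CER4 had 16.3 CPM.

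Over the same subclusters, the change between days was uneven. Wax genes had a ratio of day 4 over day 3 of 1.45 (1.303 to 1.61) in subcluster 4, 1.35 (1.22 to 1.49) in subcluster 2, 1.31 (1.06 to 1.63) in subcluster 5, 1.10 (1.02 to 1.19) in subcluster 6, 1.05 (0.97 to 1.13) in subcluster 1 and 0.73 (0.59 to 0.91) in subcluster 3. Elongation genes had 0.78 (0.72 to 0.85) in subcluster 2 and 1.20 (1.09 to 1.32) in subcluster 6. The regulators had 1.52 (1.25 to 1.87) in subcluster 1 and 1.41 (1.12 to 1.78) in subcluster 2. Subcluster 4 holds markers of other tissues, and without it the summed level within epidermis-like nuclei had a ratio of 1.06 in place of 1.15.

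Correlations among members were computed across epidermis-like nuclei at 1000 UMIs each, 526 at day 3 and 822 at day 4. They are descriptions, since nuclei of a library share its preparation and sparse counts hold r low. The median r over the 528 pairs of the 33 members was 0.03 in both libraries, against -0.01 for all pairs of genes, and 17.6% and 17.8% of member pairs had r above 0.1, against 3.29% and 1.33% of all pairs. Members and all genes differ in depth here as well, so these shares are not alike in depth. In both libraries together, 61 pairs were above 0.1, a count that was not made over all pairs of genes.

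**Figure D5:**
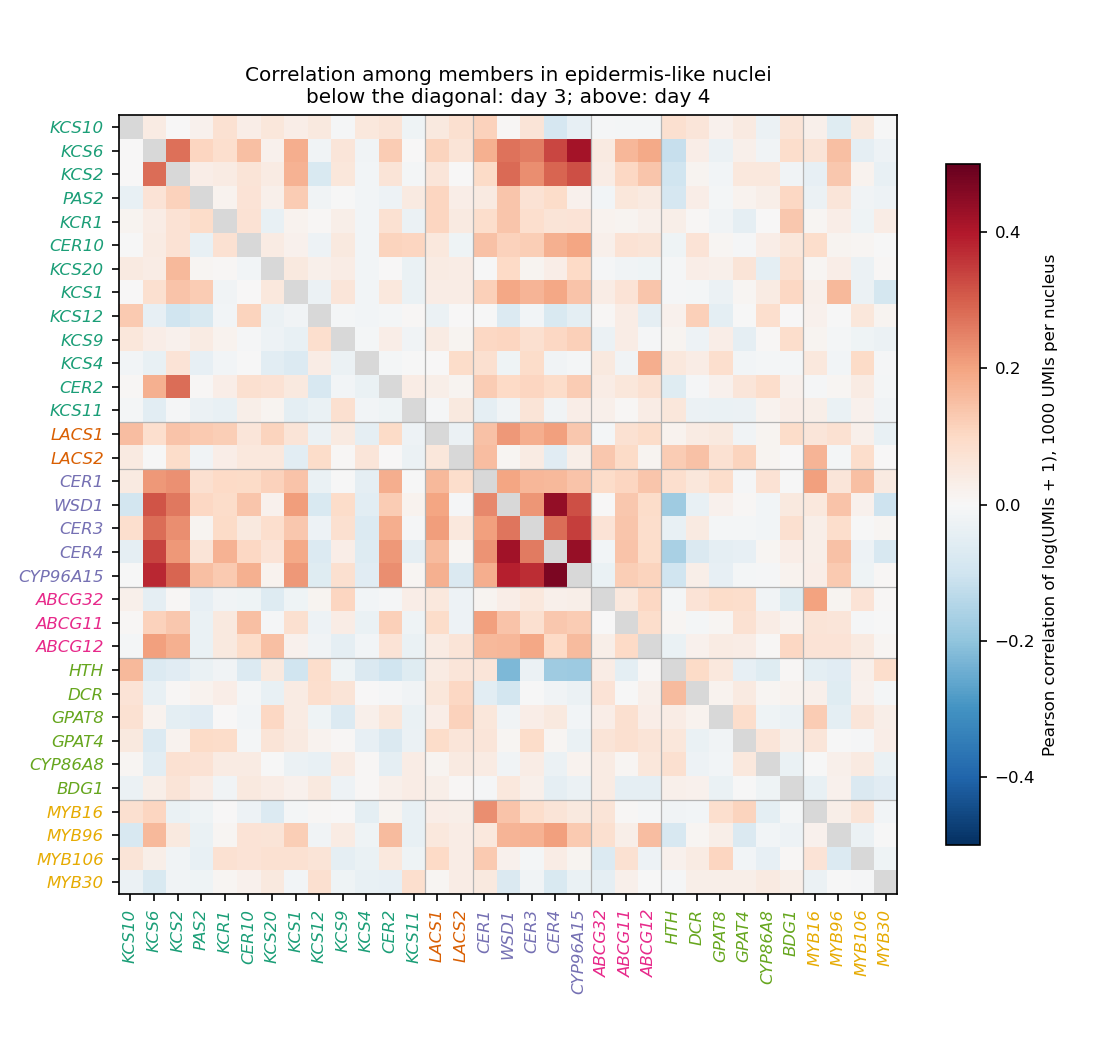
Pearson correlation of log(UMIs + 1) between members across epidermis-like nuclei thinned to 1000 UMIs, with day 3 below and day 4 above the diagonal and genes ordered by role. The block of wax genes and its links to KCS6 and KCS2 are the reddest areas, and HTH is blue against WSD1, CER4 and CYP96A15.

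Correlations were highest among the wax genes. All 10 pairs of wax genes had r above 0.1 in both libraries, with medians of 0.26 and 0.25. CER4 and CYP96A15 had r of 0.47 and 0.44, and CER4 and WSD1 had 0.42 and 0.44. Elongation and wax genes shared 28 and 32 of 65 pairs above 0.1, led by KCS6 and CYP96A15 at 0.38 and 0.42. Of the 30 pairs of a wax and a cutin gene, 0 were above 0.1 in either library, where 3.29% and 1.33% of all pairs of genes were. This count is near those shares, and the median r of these 30 pairs was -0.01 on both days, like that of all pairs. The lowest values were those of WSD1 and HTH, at -0.23 and -0.18, and of CER4 and HTH, at -0.18 and -0.16. Cutin genes were hardly linked to each other, with medians of 0.02 and 0.02 over 15 pairs. Among pairs across roles, CER1 and MYB16 had r of 0.23 and 0.20.

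Some of these values were lower without the nuclei of subcluster 6, a comparison added after the data were seen. Without them, KCS6 and CYP96A15 had r of 0.19 and 0.22, and CER4 and CYP96A15 had 0.39 and 0.25. CER4 and WSD1 kept 0.40 and 0.38, CER1 and MYB16 kept 0.22 and 0.23, and WSD1 and HTH kept -0.20 and -0.16.

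Of other genes, the 10 whose UMIs followed the summed members most closely across epidermis-like nuclei were RD22, MLP423, AT2G38995, ICR1, ADS4, ORP4B, AT1G45010, ALF5, SAHH2 and LTP1. RD22 had r of 0.32 and 0.35, and MLP423 had 0.31 and 0.36. LTP1, a lipid transfer protein on the marker list of the epidermis, had 0.26 and 0.25.

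A further list of 31 cuticle genes was examined beside the members, of which 19 reached 200 UMIs. Of these, 3 were at least 1.5-fold higher at day 4, where 4.83% of all genes were, 3 were at least 1.5-fold lower, where 3.64% were, and 13 were at least 2-fold higher in epidermis-like nuclei of both libraries, where 2.75% were. AT5G33370, a cutin synthase-like gene, had 4.15 and 72.8 CPM (17.5, 13.0 to 24.2). SHN1, an activator of wax and cutin genes, had 3.88 and 17.4 CPM (4.50, 3.21 to 6.43), and WRI4, an activator of wax genes, had 6.59 and 13.2 CPM (2.01, 1.50 to 2.71). The lower genes were LTPG1, which is anchored at the cell surface and helps export wax, at 210 and 134 CPM (0.64, 0.60 to 0.68), KCS8 (0.59, 0.51 to 0.67) and KCS19 (0.63, 0.54 to 0.74). AT5G33370 and SHN1 also lead subcluster 8, which is nearly all of day 4.

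The others of that list stayed within 1.5-fold, namely SHN3, MYB94, DEWAX, CER7, CER9, AT1G02190, LTPG2, ABCG13, LTL1, LACS4, ACC1, FATB and KCS13, with ratios from 0.67 to 1.34. ACC1 and FATB, which supply malonyl-CoA and saturated fatty acids ahead of the members, had ratios of 1.33 (1.26 to 1.40) and 1.14 (1.07 to 1.20).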

How the data were processed

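Nuclei were sorted and put through droplet libraries, and the authors deposited raw UMI counts per gene and barcode (Cell Ranger 3.1.0 per the file headers, Araport11 annotation). The genome build behind the counts and any correction for free RNA or doublets are not given in the sources used here. Both protocols speak of a fourth-day harvest, although 1 title says day 3. Platform and PCR cycles (11 and 14 for cDNA, 14 and 13 for the library) differed between days and cannot be told apart from them.

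Members and lists were chosen with earlier results of these data known. Nuclei with at least 1000 nuclear genes were kept and no doublets removed. Clustering followed the study (Seurat 5.3.0, sctransform 0.4.2, 3000 variable genes, 9 components, Louvain at 0.04), with members left out. Epidermis-like nuclei were divided with leidenalg 0.10.2 (2000 genes, 15 components, 20 neighbours, resolution 0.5). A cluster took the name of the marker list with the highest share of genes at least 2-fold higher, and stayed unnamed with under 3 such genes, with more markers of another list among its 10 leading genes, or with neither a marker among these nor most of its list 2-fold higher. Marker lists covered epidermis, trichome, stomatal lineage, flavonoid synthesis, S phase, G2/M, mesophyll, cortex, floral meristem, xylem, phloem and procambium. Intervals are exact Poisson (CPM), Clopper-Pearson (shares) and conditional binomial (ratios), computed with scipy 1.17.1. The interval script was tested on simulated data. TMM factors came from edgeR 4.0.16, for scaling only.

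Named in full were members with at least 1000 UMIs, the 5 largest and 5 smallest ratios among those with at least 200, and members highest in a subcluster. Of other genes, the text names related cuticle genes, naming markers, leading genes of subclusters and the 10 most correlated genes.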

Additional observations from a re-analysis of the deposited data

Results flagged for a closer look

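For 8 of 33 members (24.2%) the ratio of day 4 over day 3 lay above 1 in one of the classes and below 1 in the other, epidermis-like or remaining nuclei, with both counting intervals apart from 1. The same held for 1.32% of 14740 genes. These shares are not alike in depth, since 29 of the 33 members but only 3974 of the 14740 genes had 200 UMIs in epidermis-like nuclei. Genes with few UMIs have wide intervals and can seldom meet this rule. With 1 library per day the difference between the classes was not tested. KCS6 had 1.20 in epidermis-like and 0.85 in other nuclei, KCS12 1.37 and 0.73, KCS20 1.32 and 0.74, and CER10 1.36 and 0.70. LACS1 had 1.20 and 0.82, LACS2 1.28 and 0.83, and GPAT4 1.53 and 0.79. CYP96A15 went the opposite way, with 0.75 in epidermis-like and 1.40 in other nuclei.

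The part of free RNA in the levels of other nuclei was not estimated. Of these 8 members, KCS12 alone had a day 3 level in other nuclei above that in free RNA (39.3 and 33.6 CPM), and it lay within the upper bound of 45.8 CPM. LACS1 had 233 CPM in other nuclei and 312 CPM in free RNA, and CYP96A15 had 17.0 and 58.0 CPM. The ratio of LACS2 in epidermis-like nuclei was 0.999 (0.88 to 1.13) without subcluster 8, which held 203 of its 791 UMIs at day 4, and that of GPAT4 was 1.40 (1.09 to 1.80). Both values without subcluster 8 were added after the data were seen.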

How the results depend on the processing

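No paired analysis was possible because each day had 1 library and the libraries share only the replicate number 1. The results rest on 1 library per day, and counting intervals do not cover the spread between plants or preparations. Among alternative values of the main results, 79 stayed within the tolerance around the main value and 45 moved out of it. That tolerance was a counting interval for levels and ratios and 1.5-fold for counts of members. Of 297 alternative ratios of single members 279 kept their side of 1, no called value changed sign, CER4 lost its call in 6 settings and BDG1 in 2, and CYP96A15 and DCR gained one at 1500 genes per nucleus.

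Over all nuclei, a minimum of 500 genes gave 3418 and 3859 CPM (ratio 1.129), and one of 1500 genes gave 3185 and 3634 CPM and 2 members lower. Nuclei at 1000 UMIs gave 3335 CPM at day 3 and 3 members higher. TMM and median-of-ratios scaling gave ratios of 1.079 and 1.082. A pseudocount of 10 CPM left 0 members lower, and no minimum of UMIs gave 8 higher and 2 lower. Without the 8% deepest nuclei, a setting chosen after seeing the data, day 3 had 3363 CPM, the ratio was 1.132, epidermis-like over other nuclei was 5.51 and 7.09, and within epidermis-like nuclei the day ratio was 1.075 for all members and 1.12 for wax genes.

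Clusters formed with the members gave 4.99 for epidermis-like over other nuclei at day 3 and day ratios within epidermis-like nuclei of 0.984 for all members, 0.884 for wax and 1.298 for cutin genes. The cause was not tested. Resolution 0.08 gave day ratios of 1.277 for all members and 1.45 for wax genes. Taking any nucleus with UMIs of 2 epidermis markers (2548 and 2457 nuclei) gave summed ratios of 5.80 and 7.51, medians of 6.99 and 8.63, and day ratios of 1.286 for all members and 1.72 for wax genes. Against vascular and cortex-like nuclei the sums were 7.24 and 10.2 and the medians 7.87 and 10.3.

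Without subcluster 4, also chosen after seeing the data, the sums were 5.36 and 6.73, and the day ratios 1.06 for all members, 1.12 for wax and 1.076 for cutin genes. At day 3 wax genes in subcluster 6 then had 3.90 and cutin genes in subcluster 2 had 1.94. Subclustering at 0.25 gave cutin genes 1.81 and 1.53 in subcluster 2, and 30 components gave 1.88 at day 3.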
